A study of Drosophila melanogaster with 2 samples.

Results

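Binding of the forkhead factor Sloppy paired 2 (Slp2) was examined at 34 homeobox genes that lie outside the Hox complexes. The genes were taken from a fixed list of symbols, drawn up with earlier results of these data known. All 34 matched a gene model among the 13945 protein-coding genes of the 6 chromosome arms. Slp2 was mapped by ChIP-seq, the sequencing of DNA recovered with a precipitated protein, in whole embryos of Drosophila melanogaster aged 0 to 24 hours, male and female together. It holds 1 group of 2 samples, biological replicates 2 and 3, both from strain 9T-GFP, a transgenic line that stably carries Slp2 with green fluorescent protein at its C terminus, precipitated through that tag. The labels do not say whether the untagged gene is still present in this line, and there is no second condition, so the values below describe where binding was called and support no test between groups.

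Homeobox genes encode transcription factors that grip DNA through the homeodomain, a small helical domain that often reads sites with a TAAT core. Many of them give cells of the embryo their regional or cell type identity, in the nerve cord, the muscles and the limb and eye primordia. Slp2 is known as a segmentation gene product, and in the developing nervous system it also takes part in the temporal patterning of neural stem cells.

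Peaks on the dm6 genome came as a list called on both replicates together (the pooled list, 28637 peaks), a relaxed list for each replicate (30000 peaks each), and a shorter list that passed an IDR threshold (irreproducible discovery rate, a comparison of peak ranks between replicates). The 3203 peaks of this IDR list are those with the highest signal in the pooled list. Each peak has a signal value, the authors' score without a stated scale. Peaks were ranked by it within each list, with rank 1 the strongest. The files record no read numbers, so the depth is unknown and no interval for a signal value is given. A summit was assigned to a gene when it lay in the gene body or within 20 kb of it, and to a promoter when it lay within 500 bp of an annotated transcription start site (TSS) of that gene.

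Strong Slp2 peaks were rare at the promoters of these genes. An IDR summit lay within 500 bp of an own TSS at 1 of the 34 genes (2.94%, 95% Wilson interval 0.521 to 14.9), where 15.2% of all protein-coding genes had one. By the 3203 strongest peaks of replicate 3 alone this count was 0, and by those of replicate 2 alone it was 2. Within 20 kb the count was 20 of 34 (58.8%, interval 42.2 to 73.6), against 69.1% of all genes. An IDR summit whose nearest TSS belonged to the gene was found for 10 of 34 (29.4%), against 17.1% of all genes, and an IDR summit inside the gene body for 4 of 34 (11.8%), against 9.06%. For the intervals each gene counts as independent, and they cover counting error alone. Of the 1704 genes at least as long as the median of the 34, 75.1% had an IDR summit within 20 kb and 21.1% at an own promoter. The shares of the 34 genes were not limited to that length, so the 2 sets are not matched.

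**Figure D1:**
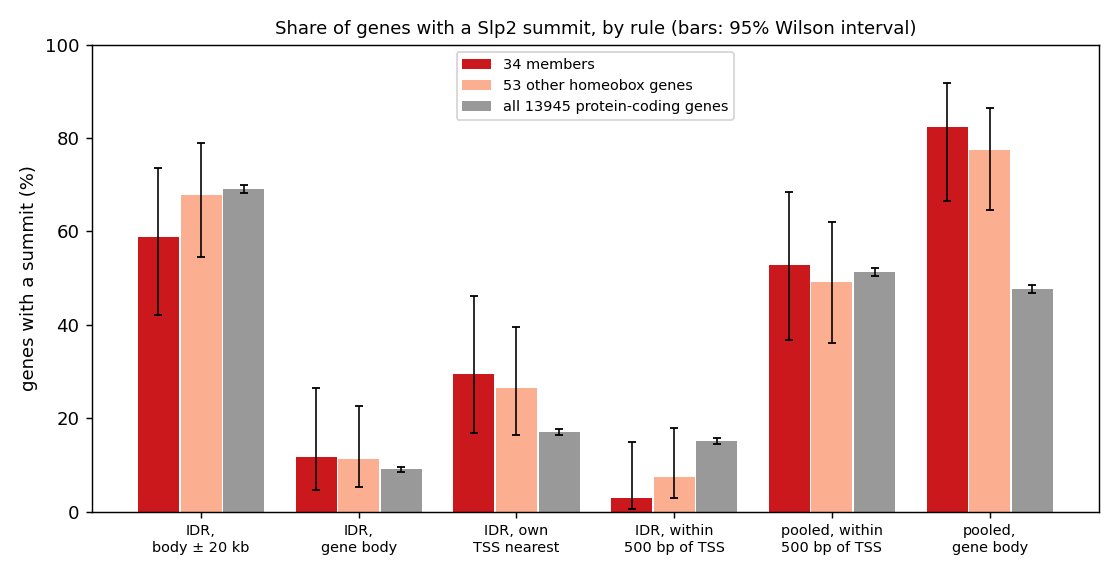
Share of genes (percent, from 0) with a Slp2 summit under 6 rules, for the 34 genes, 53 other homeobox genes and all 13945 protein-coding genes; error bars are 95% Wilson intervals. The 34 genes stand at 2.94% against 15.2% of all genes for IDR summits within 500 bp of a TSS, and at 52.9% against 51.4% for pooled summits there.

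These genes were longer than most and had fewer neighbours. The median length of the 34 genes was 11657 bp, against 2166 bp over all genes. The 20 kb window held a median of 3.5 other genes with a TSS in it, against 8 over all genes. Among the 17 genes of the group with at most that median number of neighbours, 8 had an IDR summit in the window (47.1%), and 39.8% of the 1993 genes of the genome with as few neighbours did. Among the 17 with more neighbours it was 12 (70.6%), against 74.0%. Where summits at the promoters of other genes were left out, 14 of 34 genes kept a summit (41.2%), against 38.1% of all genes. The stretch of sequence that lay nearer to the gene's own TSSs than to any other had a median of 19004 bp for the group and 4328 bp for all genes. Per 100 kb of this stretch the group had 1.5 IDR summits and the genome 2.41, while pooled summits stood at 24.2 and 21.5. The part of gene density and gene length in the counts was not tested.

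In all, 39 different IDR summits lay in the 34 windows, of which 28 had the TSS of another gene as the nearest and 15 of those 28 lay within 500 bp of it. The 11 summits in the windows with an own TSS as the nearest belonged to 8 genes, and 3 further summits beyond the windows brought this to 14 summits at 10 genes. Of these 14, 13 lay more than 5 kb from the TSS, where 558 of all 3203 IDR summits (17.4%) lay that far from any TSS. The 2 sets are unlike, as the stretch nearest to own TSSs had a median of 19004 bp here and 4328 bp for all genes. Its part in this difference was not tested. Distances to the own TSS, apart from that of Dll, ran from 6820 to 39772 bp with a median of 15984 bp. The summits lay between genes in 10 cases and in an intron of the gene itself in 4.

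**Figure D2:**
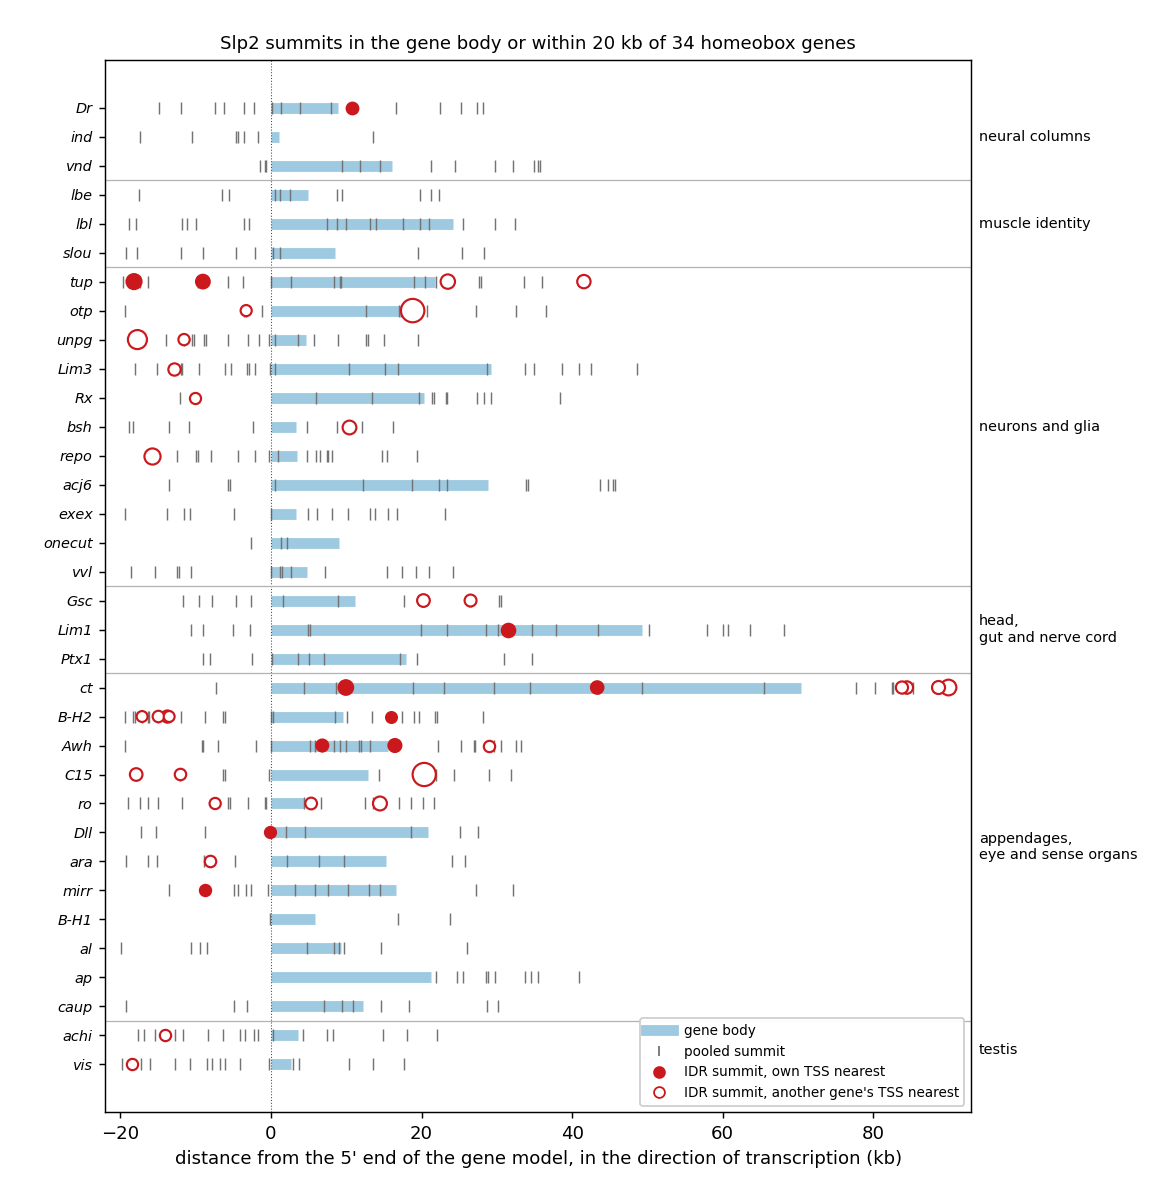
Summits around each of the 34 genes, by distance in kb from the 5' end of the gene model in the direction of transcription; blue bars are gene bodies, grey ticks pooled summits, and circles IDR summits with an area that grows with the signal value (filled where an own TSS is the nearest, open where another gene's is). Of the 39 different IDR summits, 1 lies at the start of the gene it is drawn for, at Dll, and the open circles of otp and C15 have the highest signal values, 462 and 453.

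The sequences under the summits nearest to these genes are shown for 6 of them, the strongest at tup, ct and Lim1, and 3 others chosen, after the matches were seen, because they hold the core of a forkhead site. Each is the plus strand of dm6 from the Release 6 genome, the summit with 50 bp on either side. The windows are chr2L:18899399-18899499 for tup, chrX:7618330-7618430 and chrX:7651713-7651813 for the stronger and the weaker summit of ct, chrX:8774207-8774307 for Lim1, chr3L:3852976-3853076 for Awh and chr3L:12684830-12684930 for mirr. Capitals mark matches on either strand to TGTTTAC or TGTTTNC, cores of the forkhead site, or to TAATTA, a homeodomain core. TGTTTNC includes TGTTTAC, and GGAAACA is its match on the minus strand. The sequences of tup and of the stronger summit of ct hold none of these.
tup: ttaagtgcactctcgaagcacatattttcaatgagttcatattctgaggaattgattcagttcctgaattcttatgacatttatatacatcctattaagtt
ct, stronger summit: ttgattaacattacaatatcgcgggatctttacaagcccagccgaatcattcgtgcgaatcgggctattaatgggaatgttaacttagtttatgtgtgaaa
Lim1: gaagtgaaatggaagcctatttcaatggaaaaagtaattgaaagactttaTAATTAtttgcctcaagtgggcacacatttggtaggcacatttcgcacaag
ct, weaker summit: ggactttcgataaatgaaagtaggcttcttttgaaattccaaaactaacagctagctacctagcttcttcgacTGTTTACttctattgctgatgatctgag
Awh: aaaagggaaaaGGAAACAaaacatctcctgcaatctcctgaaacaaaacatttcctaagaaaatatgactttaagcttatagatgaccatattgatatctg
mirr: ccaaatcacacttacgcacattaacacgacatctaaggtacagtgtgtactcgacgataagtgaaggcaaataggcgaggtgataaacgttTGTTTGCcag

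With 100 bp on either side, 4 of the 14 summits (28.6%) held TGTTTNC, as did 12 of the 39 window summits (30.8%), 23.6% of all IDR summits and 22.0% of windows centred on the TSSs of protein-coding genes. The stricter TGTTTAC stood at 2 of the 39 (5.13%) and at 7.24% of all IDR summits, and among the 14 it occurred at the weaker summit of ct alone. TAATTA was present at 5 of the 39 (12.8%) and 14.4% of all IDR summits. TATCGATA, the site of the promoter factor DREF, was found at 2 of the 39 and at 4.09% of all, GAGAGAG at 1 of the 39 and 3.93%, and CAGGTAG, the site of the early factor Zelda, at none of the 39 and 1.03%. For each of these 6 motifs the share over all IDR summits lay within the 95% Wilson interval of the 39. The content of A and T at the 14 summits had a median of 62.7%, with the summit at Dll lowest at 33.3%, against 63.7% over all IDR summits.

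Among the genes that divide the neural ectoderm into columns, Dr, which marks the dorsal column, had an IDR summit and the other two had none. The Dr summit lay between genes, 1892 bp beyond the 3' end of Dr and 10750 bp downstream of its TSS (3R, summit 29567136, signal 83.3, pooled rank 2177). It had a signal of 43.2 in replicate 2, rank 2530, and 40.9 in replicate 3, rank 2097. No other gene had a TSS in the window of Dr. At vnd, the gene of the ventral column, the strongest pooled summit of the window lay 41 bp from the TSS of spdi (signal 40.8, rank 6446), and an own promoter summit had a signal of 22.7 at 463 bp from a TSS. At ind, the gene of the intermediate column, the strongest pooled summit had a signal of 29.2 (rank 11407), rank 29999 in replicate 2 and no summit within 200 bp in replicate 3. That summit lay in an intron of Sytbeta, 880 bp from the TSS of CG43678 and 4691 bp from that of ind.

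None of the muscle identity genes lbe, lbl and slou had an IDR summit in its window. lbe and lbl, the ladybird genes, which specify muscle and heart cells, share as their strongest pooled summit one between them at 21437088 on 3R (signal 37.9, rank 7247). It ranked 13431 in replicate 2 and 11186 in replicate 3. The strongest in the window of slou, which specifies muscle founder cells, had a signal of 32.8 (rank 9184), ranked 5750 in replicate 3 and had no summit within 200 bp in replicate 2. It lay between genes, 2996 bp from the TSS of CG15498 and 8971 bp from that of slou. These genes lie with C15 in a run of NK-type genes on 3R (21409979 to 21557182, 147204 bp from lbl to slou). That run held 34 pooled summits, or 23.1 per 100 kb, and 3 IDR summits, which are the ones in the window of C15.

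Of the 11 genes that act in neurons and glia, tup was the one with an IDR summit in its window that had its own TSS as the nearest. tup encodes the Islet protein of motor neurons and also serves in the amnioserosa and heart. It had 2 such summits, both upstream and between genes, at 18188 bp (2L, summit 18899449, signal 165, pooled rank 633) and at 9038 bp from its TSS (summit 18890299, signal 130, rank 1050). The farther summit ranked 1157 in replicate 2 and 526 in replicate 3, with signals of 66.2 and 89.5, and the nearer one 1054 and 858, with signals of 69.0 and 69.6. The farther summit was the strongest with an own TSS as the nearest at any of the 34 genes, and both stood high in both replicates. A pooled summit 33 bp from the TSS of tup had a signal of 24.0 (rank 16576). The remaining IDR summits of its window lay 87 bp from the TSS of CG10602 (signal 148) and 14 bp from that of CG10600 (signal 122).

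The vvl gene, which encodes a POU factor of the tracheae and nervous system, had no IDR summit within 20 kb, but 1 at 21467 bp beyond the 3' end that was nearest to its TSS at 26250 bp (3L, summit 6816408, signal 92.4, rank 1872). It ranked 3426 in replicate 2 and 1753 in replicate 3. At its promoter, 18 bp from the TSS, a pooled summit had a signal of 37.2, with 27.9 in replicate 2 (rank 5352) and no summit within 200 bp in replicate 3. In the window, the strongest pooled summit lay 12477 bp upstream (signal 56.1, rank 4040, ranks 4734 and 4470).

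The highest signal in any of the 34 windows belonged to a summit in a coding exon of otp, which encodes a factor of the brain and hindgut. It lay near the 3' end of the gene, 12994 bp downstream of the nearest own TSS and 4660 bp from that of Cib2 (2R, 20884457 to 20884731, summit 20884590, signal 462, pooled rank 60). Its signals were 223 in replicate 2 (rank 72) and 237 in replicate 3 (rank 56). Coding exons more than 500 bp from any TSS held 6 of the 3203 IDR summits (0.187%), and this one was the strongest of them, the next having a signal of 177. The control was not analysed here, so whether this peak also stands out there was not tested. A weaker summit between otp and Rx, a gene of the brain, was counted for both genes although CAH15 had the nearest TSS (summit 20906702, signal 71.8). It ranked 10017 in replicate 2 and 1559 in replicate 3.

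The other genes of this set with an IDR summit had it at or near another gene. The summit of repo, the master regulator of glia, lay 108 bp from the TSS of CG7988 (signal 197, pooled rank 458, ranks 492 and 429). At unpg, a gene of the nerve cord, the summits lay 211 bp from the TSS of Rme-8 (signal 292, rank 190, ranks 325 and 135) and inside Rab32 (signal 75.4). For bsh, which acts in brain neurons, the summit lay 119 bp from CG10628 (signal 132), and for Lim3, a motor neuron gene, 958 bp from Ddc (signal 97.3). exex, acj6 and onecut had none in the window. exex, which encodes the motor neuron factor HB9, had its strongest pooled summit 10226 bp downstream (signal 39.8, rank 6713). That of acj6, a POU gene of olfactory neurons, lay 68 bp from HDAC6 (signal 40.6), and that of onecut, a neuronal gene on chromosome 4, in its own coding exon (signal 23.6, rank 17214).

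Of Gsc, Ptx1 and Lim1, which act in the head, gut or nerve cord, Lim1 had an IDR summit nearest to an own TSS. The Lim1 summit lay in an intron, 11096 bp downstream of a TSS (X, summit 8774257, signal 124, pooled rank 1134), with signals of 49.9 in replicate 2 (rank 1950) and 73.5 in replicate 3 (rank 773). It was the sole IDR summit of a window of 89266 bp with no other protein-coding TSS in it. The summits in the window of Gsc lay 83 bp from the TSS of cold (signal 106) and 48 bp from that of Nle (signal 88.7). Ptx1 had none, and its strongest pooled summit was intronic, 7104 bp from the TSS (signal 31.2, rank 10060).

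The 12 genes of the appendages, the eye and the sense organs held 23 of the 41 entries of IDR summits by gene and included Dll. Their median was 1.79 IDR summits per 100 kb of window, against 1.65 over the 34 genes and 2.43 over all genes. Dll, the selector gene of the legs, was the 1 gene of the 34 with an IDR summit at its own promoter, 121 bp upstream of the TSS (2R, 24814499 to 24814902, summit 24814701, signal 71.6, pooled rank 2784). Its signal was 51.2 in replicate 2, rank 1867, and 17.1 in replicate 3, rank 10170. The replicates thus gave this summit ranks far apart, and it was inside the 3203 strongest of replicate 2 and outside those of replicate 3. Its position differed little, with offsets of 15 bp in replicate 2 and 18 bp in replicate 3.

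The ct gene, needed for external sense organs, had the highest number of IDR summits, 6 in a window of 110432 bp. Those with an own TSS as the nearest were intronic, 9232 bp downstream (X, summit 7618380, signal 153, rank 741, and 811 and 725 in the replicates) and 19541 bp downstream (summit 7651763, rank 1620), the latter with ranks of 2664 and 1169. The other 4 lay inside CHES-1-like, the neighbouring forkhead gene, with signals from 93.8 to 185.

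B-H2 had 5 summits, of which 4 lay in the overlapping genes Fim and CG5445, with signals from 67.0 to 93.5. B-H1 and B-H2 encode the paired Bar proteins of the eye, the legs and sense organs. The fifth summit lay 6390 bp beyond the 3' end of B-H2 (X, summit 17330565, signal 66.6, rank 3123), ranked 4564 in replicate 2 and 2925 in replicate 3. A summit 39772 bp upstream of B-H1 was nearest to that gene (summit 17357706, signal 67.0, rank 3090, ranks 5836 and 3412), and the window of B-H1 itself held 3 pooled summits and no IDR summit. The strongest of these, 7762 bp from the TSS of CG8611 as the nearest, had a signal of 33.4. With the IDR list ending at a signal of 65.4, both intergenic Bar summits stood close to its end.

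Awh, a LIM gene of the abdominal histoblasts, had 2 summits nearest to its own TSS, at 16464 bp downstream and just beyond the gene (3L, summit 3862670, signal 112, rank 1353) and in an intron at 6820 bp (summit 3853026, signal 89.4, rank 1974). The first ranked 953 in replicate 2 and 2435 in replicate 3, and the second 4438 and 1796. The replicates ordered them in opposite ways. A summit farther off (signal 76.2) was nearest to Fie at 17342 bp.

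In the Iroquois complex, whose genes ara, caup and mirr pattern the wing, thorax and eye, 2 IDR summits lay within the 129578 bp from ara to mirr, and both were nearest to mirr. They lay upstream of mirr at 25442 bp (3L, summit 12668197, signal 75.0, rank 2569) and at 8759 bp (summit 12684880, signal 73.7, rank 2652). The farther one ranked 2556 in replicate 2 and 25620 in replicate 3, and the nearer one 1929 and 6348. Both were thus much lower in replicate 3. The summit in the window of ara lay 15 bp from the TSS of sowah (signal 79.2). caup had none, its strongest pooled summit standing 4935 bp upstream (signal 33.1).

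The strongest summit in the window of C15, a gene of the leg tip, lay between genes, 580 bp from the TSS of sp3 (3R, summit 21520348, signal 453, rank 68, ranks 206 and 36). Its others were 236 and 5648 bp from Fancm, with signals of 104 (ranks 1600 and 1646) and 79.1 (ranks 2522 and 2482). Those of ro, which acts in photoreceptor cells, lay 65 bp from ball (signal 137, ranks 973 and 859), 23 bp from ms(3)K81 (signal 83.9, ranks 1671 and 3478) and in an intron of T48 (signal 73.4, ranks 10317 and 2171). al, a gene of the leg tip, and ap, the selector of the dorsal wing, had none. Their strongest pooled summits, with signals of 47.0 and 41.4, lay 135 bp from the TSS of Polr1B and 162 bp from that of vlc. The nearest IDR summit to a TSS of ap stood 240276 bp away, the farthest of the 34 genes.

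vis and achi, adjacent genes for TGIF-type proteins required in spermatogenesis, shared 1 IDR summit, 40 bp from the TSS of fra (2R, summit 12529093, signal 74.8, ranks 2383 and 5432). Between the outer ends of the pair lay 2 pooled summits, the stronger with a signal of 33.1.

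**Figure D3:**
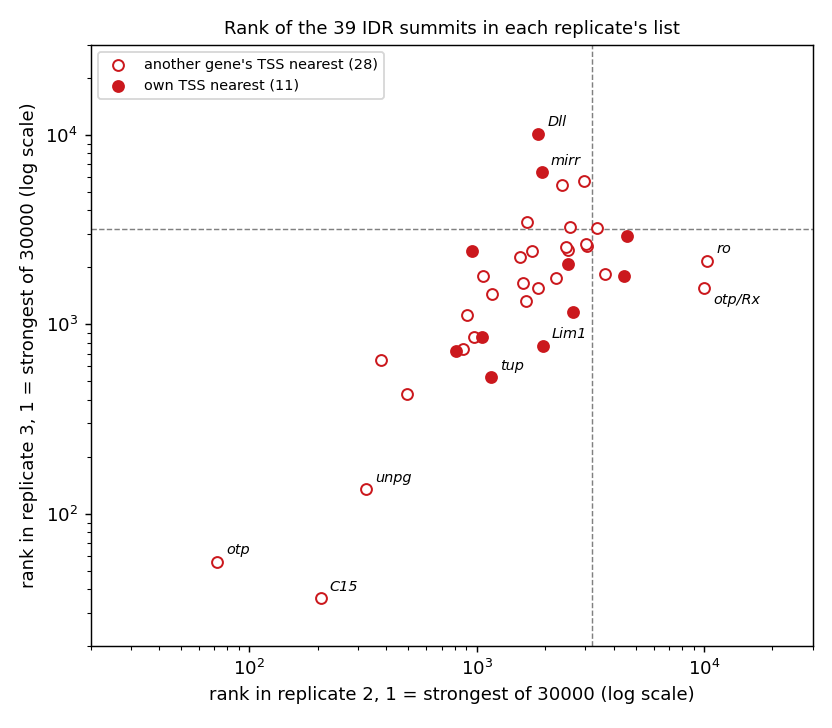
Rank of each of the 39 IDR summits in the relaxed list of replicate 2 (x axis) and of replicate 3 (y axis), both on log scales with 1 as the strongest; filled circles have an own TSS as the nearest and the dashed lines stand at rank 3203. The summits of otp, C15 and unpg rank highest in both, while 6 summits, Dll and mirr among them, are beyond rank 3203 in replicate 3 alone, and 5, the weakest of ro and that of otp/Rx among them, in replicate 2 alone.

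All 39 summits had a summit within 200 bp in each replicate. They come from the IDR list, which rests on both replicates, so that match is no separate check. Of the 39, 27 (69.2%) ranked 3203 or better in both, against 67.6% of all IDR summits. Among the 14 with an own TSS as the nearest, 7 did so, at tup, ct, Lim1, Awh and Dr. The 39 had a median signal of 97.3, where the whole IDR list has a median of 102. The maximum was 165 among the 11 window summits with an own TSS as the nearest and 462, in the coding exon of otp, among the 28 with the TSS of another gene as the nearest. The members were listed by gene symbol, with earlier results of these data known. Every summit here had to pass the IDR list, so its signal is a pooled value with no error of its own.

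At the level of the pooled list the promoters of the group were covered about as often as those of all genes, and the signal values of those covered had a lower median, as they did at the other homeobox genes. A pooled summit lay within 500 bp of an own TSS at 18 of the 34 genes (52.9%), against 51.4% of all genes, and the list of replicate 3 alone gave 11. The strongest per gene ran from 19.4 at slou to 71.6 at Dll with a median of 32.1, and over the 7164 genes that had one the median was 41.2. The 26 other homeobox genes with one had a median 1.9 above that of the 34 genes, also below 41.2. Of the 18, 15 lay below that median and 6 below the lower quartile of 26.5. A gene entered these values only where a pooled summit was present. Of the 20 pooled summits at these promoters, 17 had a summit within 200 bp in replicate 2 and 8 in replicate 3. The share of such matches over the promoters of all genes is not given here, so these counts describe the 20 summits alone. After Dll the highest were C15 with 56.5 (rank 3991, 234 bp upstream), mirr with 42.6 (395 bp upstream), vvl with 37.2 and exex with 35.7 (47 bp downstream). C15 had 38.0 in replicate 2 (rank 3162) and 14.7 in replicate 3 (rank 15157), mirr had 36.7 in replicate 2 (rank 3357) and no summit within 200 bp in replicate 3, and exex had 19.3 and 15.1 (ranks 10018 and 14169).

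**Figure D4:**
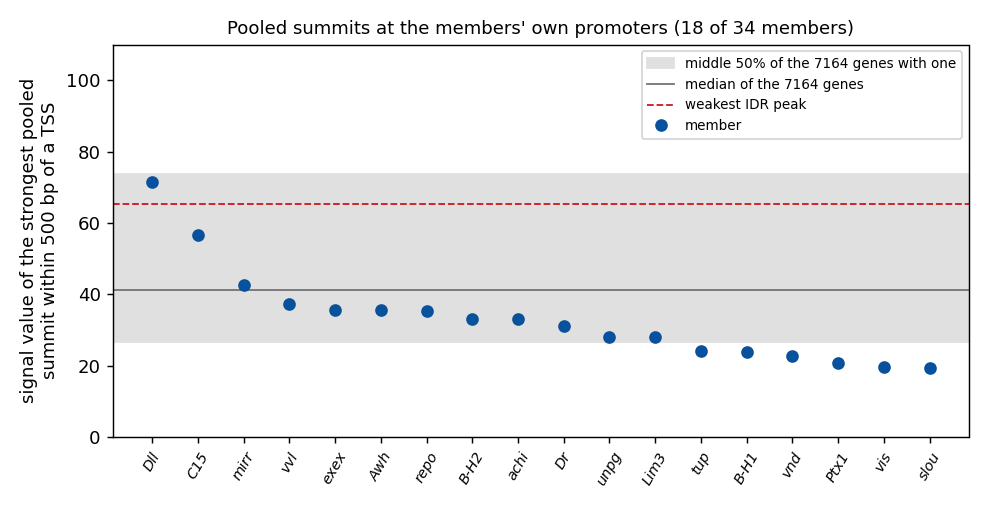
Signal value (y axis, authors' score, from 0) of the strongest pooled summit within 500 bp of an own TSS for the 18 of 34 genes that have one, with the median (grey line) and middle 50% (grey band) of the 7164 protein-coding genes that have one. Dll, at 71.6, is the only point above the dashed line of the weakest IDR peak at 65.4, and 15 of the 18 points lie below the median of 41.2.

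The replicates differed at these promoters. The relaxed list of replicate 2 had a summit within 500 bp of an own TSS at 22 of the 34 genes (64.7%, against 53.7% of all genes), and that of replicate 3 at 11 (32.4%, against 44.4%). Both lists had one at 7 genes (20.6%, against 34.9%), which were Dll, exex, Lim1, Lim3, B-H1, B-H2 and C15. Replicate 2 alone had one at 15, or 44.1%, against 18.8% of all genes. Replicate 3 alone had one at 4 (acj6, ro, vis and achi), or 11.8%, against 9.52%. Neither had one at 8 (ind, lbl, ct, otp, Rx, bsh, ara and caup), or 23.5%, against 36.8%. With 1 sample on each side this difference has no replicate check.

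Pooled summits in the gene body were found at 28 of the 34 genes (82.4%), against 47.7% of all genes, and pooled summits with an own TSS as the nearest at 32 (94.1%), against 67.6%. The median length was 11657 bp for the 34 genes and 2166 bp over all genes, and the part of length in these shares was not tested. Every window held a pooled summit, as did 98.3% of windows over all genes, with from 3 summits at onecut and B-H1 to 25 at Awh and B-H2. Per 100 kb of window the pooled summits had a median of 23.2, against 27.3 over all genes, and the IDR summits 1.65 against 2.43. The median over the 34 genes was 0 with the 3203 strongest peaks of replicate 3 alone.

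By role, an IDR summit with an own TSS as the nearest, counted inside the windows, was found at 8 of the 34 genes (23.5%), against 17.0% of all genes. These were 5 of the 12 genes of appendages, eye and sense organs, 1 of the 11 of neurons and glia, 1 of 3 for the neural columns and 1 of 3 for head, gut and nerve cord, and none of the 3 muscle and 2 testis genes. By type of homeodomain it was 3 of the 5 LIM genes (tup, Lim1 and Awh), 3 of the 14 Antennapedia and NK-like genes (Dr, Dll and B-H2), 1 of the 5 of the TALE class (mirr), 1 of the 2 CUT genes (ct), and none of the 6 paired-like and 2 POU genes. These counts are small, and no difference between classes was tested.

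The 53 other homeobox genes with a gene model, which include segmentation and Hox-complex members, were counted by the same rules. Of these, 36 (67.9%) had an IDR summit within 20 kb, 4 (7.55%) at an own promoter and 14 (26.4%) with an own TSS as the nearest. Their Wilson intervals overlap those of the 34 genes under each rule, and the difference was not tested. Per 100 kb of their own stretch they had 1.55 IDR summits, and 26 of them (49.1%) had a pooled summit at an own promoter.

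Values near the limits of the rules were as follows. The farthest IDR summit inside a window lay 19814 bp from the body, at tup, and the nearest outside 20214 bp, at Lim3 (signal 67.2). At own TSSs, the farthest pooled summit inside 500 bp was that of vnd at 463 bp, and the nearest outside that of Lim1 at 548 bp (signal 30.4). The weakest IDR summit of the group was the B-H2 one (rank 3123), and the strongest pooled summit just past the end of the IDR list, at rank 3253 with a signal of 64.8, lay in the window of C15.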

How the data were processed

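Sonication gave a size range of 200 to 800 bp, as the labels have it. Per the deposited readme files, replicate and pooled peaks came from the alignments and 1 file that they do not describe, and the IDR list from those 3 peak lists. The labels name a possible control, which was not analysed here. Aligner, peak caller and IDR threshold are not given in the sources used here. The signal value is a score that the authors deposited, with no stated scale. Summits are column 2 plus column 10 of the dm6 lists, counted from 1. Every peak lay within the Release 6 arms, whose FASTA gave the sequences. Gene models are Ensembl release 115. A summit was matched to a replicate within 200 bp.

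The 34 genes, the class lists, the other homeobox genes and the motifs were chosen with earlier results of these data known. Of 54 other homeobox symbols, 53 had a gene model. Every gene was counted and named. By rule, the fullest values were given to those with an IDR summit at an own TSS and the 10 with the strongest own-nearest summit. The same held for the 5 with most summits (with ties) and the 5 strongest own promoters. For some of these summits, such as those of ct inside CHES-1-like, positions or ranks were left out. Genes without an IDR summit were given with their strongest pooled summit, and the others with the gene of the nearest TSS. With 1 group, shares are set beside those of all protein-coding genes and no test was run. Replicates are biological per the labels. Counting was tested on simulated data: of 200 genes with planted summits among 13945, 200 were found. Each summit was planted inside the 500 bp limit, so this checks the counting alone and not the peak calls. Python 3.11.15, pandas 2.3.3 and SciPy 1.17.1 were used.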

Additional observations from a re-analysis of the deposited data

How the results depend on the processing

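Of 56 values under alternatives, 32 stayed within 1.5 times the reported count (or the spread or interval of the value) and 24 moved. The 32 include alternatives that changed the background alone, where the count of the group could not move, so these are no check on it. No paired analysis was possible because the series holds 1 group. Genes with an IDR summit near them fell from 20 to 8 with windows of 5 kb (39.4% of all genes), 4 in the gene body alone (9.06%) and 11 in the stronger 50% of the peaks (50.7%). The different summits fell from 39 to 11 with 5 kb, 19 with 10 kb, 5 in the body and 17 in the stronger 50%. The median density fell from 1.65 to 0 per 100 kb with 5 kb and with the body alone, where that of all genes was also 0. It was 0 too with 10 kb, the stronger 50% and the peaks found among the 3203 strongest of each replicate, where that of all genes was 2.85, 1.18 and 2.29. Own promoters with an IDR summit fell from 1 to 0 in the stronger 50% (8.13% of all genes) and in peaks strong in each replicate (10.8%). Own-nearest genes fell from 10 to 4 and 6 there, where all genes had 9.61% and 12.7%. Own promoters in the pooled list fell from 18 to 9 with the 10000 strongest peaks, against 33.3% of all genes. With 50 bp on either side of the summit the shares of GAGAGAG and TATCGATA fell to 0 and that of TAATTA to 5.13%. Over all IDR summits these shares fell as well, from 3.93% to 1.47%, from 4.09% to 2.25% and from 14.4% to 7.12%.

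With the ranking of 1 replicate in place of both, without replicate 2 or without replicate 3, the range was 16 to 19 genes with a summit near them (47.1% and 55.9%, against 70.1% and 68.1% of all genes), 36 to 41 summits and a density of 0 to 1.45 (all genes 2.43 and 2.42). Own promoters ranged from 0 to 2 (all genes 15.6% and 14.2%), own-nearest genes from 8 to 9 (16.6% and 17.5%), and own promoters in the relaxed lists from 11 to 22 (44.4% and 53.7%). Dll thus left the promoter count without replicate 2. The 3 alternatives chosen after seeing the data changed the background alone. So did a planned one, with genes whose window was at least as long as the shortest member window (73.1% with an IDR summit near them). Genes at least as long as the median member had an IDR summit near them in 75.1% and at an own promoter in 21.1%. That length limit was not applied to the members. Those with no more neighbours than the median member had an IDR summit near them in 39.8%, against 47.1% of the members with as few. The unknown read depth limits what an absent summit can show.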
